A study of Homo sapiens with 4 samples.

Results

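Cystine import and glutathione metabolism were examined through 9 genes out of the 23228 genes in the count tables. The 9 were chosen by name for their place in this pathway, with earlier results of these data known. They are the cystine transporter gene SLC7A11, the synthesis genes GCLC, GCLM and GSS, the recycling gene GSR, and the peroxidase genes GPX1, GPX2, GPX4 and GPX8. RNA was sequenced from ES2, an established human ovarian cancer cell line, grown in phenol red-free medium with charcoal-treated serum and kept for 24 h with vehicle (2 samples) or with liquiritigenin (Liq, 2 samples), a plant flavanone used in the study as an agonist of estrogen receptor β (ERβ). The dose, 100 μM, is from the study's methods. Both groups share the cell line, the medium and the time. No source used here says whether the 2 samples of a group were separate cultures. The p-values of the fits therefore rest on the spread between these samples, pooled over genes, which may be technical.

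Glutathione is a tripeptide of glutamate, cysteine and glycine and the main small thiol of animal cells. Cysteine is usually its limiting building block, and many cultured cells obtain it by importing cystine through SLC7A11 in exchange for glutamate. The peptide is built in successive steps by glutamate-cysteine ligase (a catalytic subunit from GCLC and a modifier subunit from GCLM) and glutathione synthetase (GSS), is spent by peroxidases, and is restored from its oxidized form by glutathione reductase (GSR). Several of these genes are textbook targets of NRF2, a transcription factor that binds antioxidant response elements (AREs).

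The libraries held between 34573053 and 48933893 reads assigned to genes. Alignments that were not unique made up 35.63% to 36.23% of a library's total tally and were set aside, which need not equal their share of reads. Libraries of a group differed by more than sampling noise (chi-square per degree of freedom of 6.33 for vehicle and 11.1 for Liq), and by less than libraries of different groups (58.4 to 71.4). Levels are given as CPM, counts scaled to a common library size by TMM, and 3 reads correspond to 0.0598 to 0.0844 CPM. Of the epithelial markers, KRT7, KRT8 and KRT18 had at least 871 reads in each library, PAX8 (a Müllerian lineage factor) had 12 to 49 and WT1 98 to 181, while EPCAM and KRT19 had 1 to 3 reads, NAPSA 1 to 8, MUC16 at most 1, and CDH1 0. The endothelial cadherin CDH5 had 1712 to 2239 reads and the lysosomal marker CD68 2538 to 3331, but the leukocyte genes PTPRC and CD3E had at most 1 read, CD14 3 to 11, the endothelial genes PECAM1 and VWF 1 to 10 and CLDN5 0. The summed level of the 10 epithelial markers used was 458.8 to 499.3 CPM in vehicle and 531.6 to 577 CPM in Liq, that of the leukocyte markers 67.9 to 74.3 and 66.5 to 77.7 CPM, and that of the endothelial markers 50.8 to 53.3 and 44.7 to 48.2 CPM. PAX8 and WT1 were called lower with Liq (log2 fold changes of -1.34 and -0.68). KRT7 was higher (0.505) and KRT18 lower (-0.242) past the adjusted p but under 1.5-fold, and KRT8 (0.134) did not pass, so the 5 tested epithelial markers went both ways. The part of these markers in the results below was not tested. ESR2, which encodes ERβ, had 4, 7, 5 and 14 reads, and ESR1 had 17 to 34.

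With Liq, transcripts for cystine import and for the modifier subunit rose, those for glutathione reductase rose to a smaller degree, and those for the most abundant peroxidase, GPX4, and for GSS did not pass the test. SLC7A11 was 2.58-fold and GCLM 1.92-fold higher, GSR was 1.45-fold higher, and GPX1 was 30.8% lower. The catalytic subunit gene GCLC was 1.17-fold higher, with an adjusted p just above the threshold (0.05084) and a size well under 1.5-fold. GPX2 had no read in any library. A gene was called at a change of at least 1.5-fold with an adjusted p under 0.05 (edgeR's quasi-likelihood test, Benjamini-Hochberg adjustment over 13546 tested genes). Of the 8 members that passed the filter on low counts, 2 were called, both upward, against 6.45% of all tested genes called in either direction and 4.29% called upward. None was called downward, where the share of all tested genes was 2.16%, and this count was also 0 with the unadjusted p and with DESeq2. It was not 0 in every fit, as GPX1 went beyond 1.5-fold without vehicle replicate 2 (log2 -0.632) and without Liq replicate 1 (-0.607). At an adjusted p under 0.05 of any size, 4 of the 8 passed (3 upward and 1 downward), against 24% of all tested genes (12.6% upward and 11.3% downward). The median log2 fold change was 0.109 over the 8 members and 0.00619 over all tested genes. In 5 of the 8 the groups did not overlap, as in 61.7% of all tested genes, so that share was near the background.

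**Figure D1:**
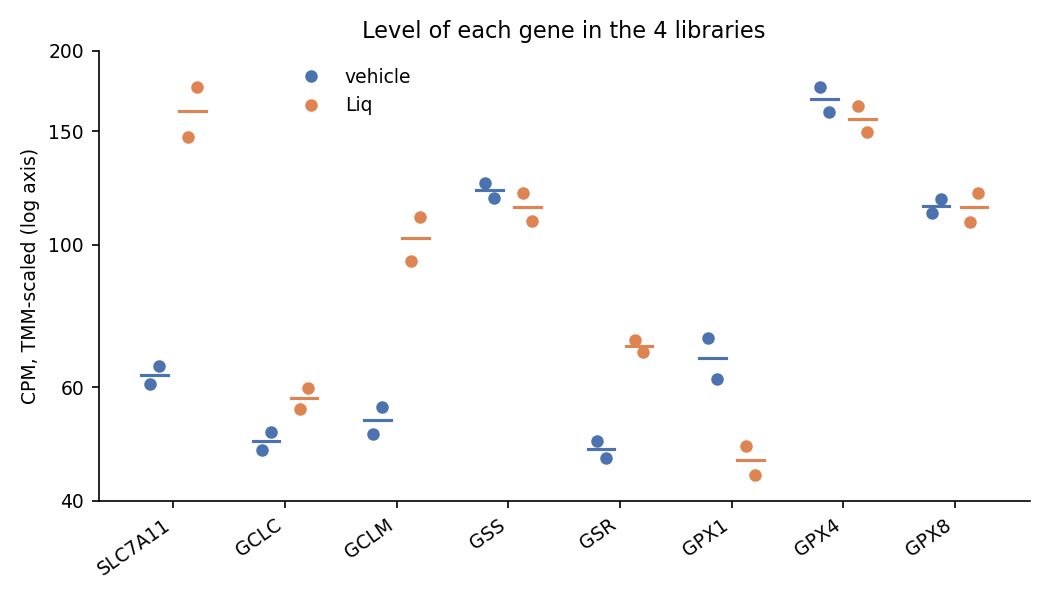
TMM-scaled CPM of the 8 detected genes in each library on a log axis, vehicle in blue and Liq in orange. Points are the 2 libraries of a group (replicate 1 on the left) and bars their mean. Both Liq points lie above both vehicle points for SLC7A11, GCLC, GCLM and GSR and below them for GPX1.

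Cystine import. SLC7A11 encodes the light subunit of the cystine/glutamate antiporter (chromosome 4 from 139085251 to 139163503, GRCh37, minus strand, 12 exons). It had 60.8 and 64.8 CPM in the vehicle libraries and 147 and 176 CPM in the Liq libraries, from 2500, 2424, 5230 and 8830 reads. The groups were far apart, and Liq replicate 2 was the higher of the 2 Liq libraries. Mean levels were 62.8 ± 2.79 and 161.5 ± 20.4 CPM (SD, n = 2). On the log2 scale the difference was 1.365 (SE 0.084, 95% interval 1.19 to 1.54, edgeR adjusted p = 2.991e-12). Its increase ranked 105 among the 13546 tested genes. The transcript of SLC7A11-AS1, on the opposite strand, shares 865 exonic bases with SLC7A11 and has no row of its own in the tables. As the strand setting of the counting is not given in the sources used here, reads from both strands cannot be told apart there. In whole cultures, more cells with a transcript and more of it per cell cannot be told apart either, which holds for every gene below.

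The 3 tested genes whose 4 values followed those of SLC7A11 most closely, by Euclidean distance between centred log2 CPM among 9544 genes with a mean of at least 10 CPM, were PDE5A (distance 0.0477), KITLG (0.12) and CRISPLD2 (0.208). With vehicle, PDE5A, a cyclic GMP phosphodiesterase gene, was at 5.80 ± 0.366 CPM, and with Liq at 14.8 ± 1.48 CPM (SD, n = 2). KITLG, which encodes stem cell factor, went from 21.4 ± 1.40 to 50.9 ± 5.30 CPM, and CRISPLD2, which encodes a secreted protein, from 6.67 ± 0.207 to 17.9 ± 0.173 CPM (SD, n = 2). These rankings rest on 4 libraries in 2 groups and say only that the size of the difference was alike. The spread was not alike for all 3, as the Liq SD of CRISPLD2 was 0.173 on 17.9 CPM. That of SLC7A11 was 20.4 on 161.5 CPM.

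Glutathione synthesis. GCLC and GCLM encode the subunits of the rate-limiting ligase, and the 95% intervals of their fold changes did not overlap. GCLC (chromosome 6 from 53362139 to 53481768, GRCh37, minus strand) had 47.9 and 51.2 CPM in vehicle and 55.5 and 59.9 CPM in Liq. The groups did not overlap, but the gap between them was similar to the distance between libraries of a group. The log2 fold change was 0.22 (SE 0.08, 95% interval 0.05 to 0.39, edgeR adjusted p = 0.05084), that is 1.17-fold with an interval of 1.04 to 1.31. The edgeR adjusted p was 0.03005 with upper quartile normalization, 0.03468 with loess offsets and 0.04708 with at least 10 counts in every sample. It was 0.006715 with the replicate block, 0.05405 with DESeq2 size factors and 0.06082 without the filter on low counts. DESeq2's own test gave 0.08099. Leaving out 1 sample gave log2 fold changes of 0.163 to 0.275. GCLC thus stood at the edge of the threshold for p, while no fit put it at 1.5-fold. GCLC-AS1 overlaps 305 of its exonic bases on the opposite strand, and an unnamed gene without a row shares 529 on the same strand, so its count is uncertain.

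GCLM (chromosome 1 from 94350755 to 94375012, GRCh37, minus strand) encodes the modifier subunit, which makes the enzyme more efficient. It had 50.9 and 56.0 CPM in vehicle and 94.3 and 110 CPM in Liq, from 2091, 2095, 3354 and 5537 reads. As for SLC7A11, the groups were well apart and Liq replicate 2 was the highest. The log2 fold change was 0.94 (SE 0.08, 95% interval 0.77 to 1.11, edgeR adjusted p = 4.597e-09). Its increase ranked 295 among tested genes, against 2963 for GCLC.

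Because both subunit genes were counted in the same library, their ratio does not depend on library scaling. Per GCLC read there were 1.06 and 1.09 GCLM reads in the vehicle libraries and 1.70 and 1.84 in the Liq libraries. The mean log2 ratio was 0.108 ± 0.031 in vehicle and 0.823 ± 0.081 in Liq (SD, n = 2), a difference of 0.715 or 1.64-fold. This difference was larger than the spread within either group. The exact permutation test over samples gave p = 0.3333 (two-sided), the smallest value that 2 samples against 2 allow. Per kilobase of exon, GCLM was at 0.823 and 0.848 of the GCLC level in vehicle and at 1.32 and 1.43 of it in Liq, so the order of both transcripts turned.

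**Figure D2:**
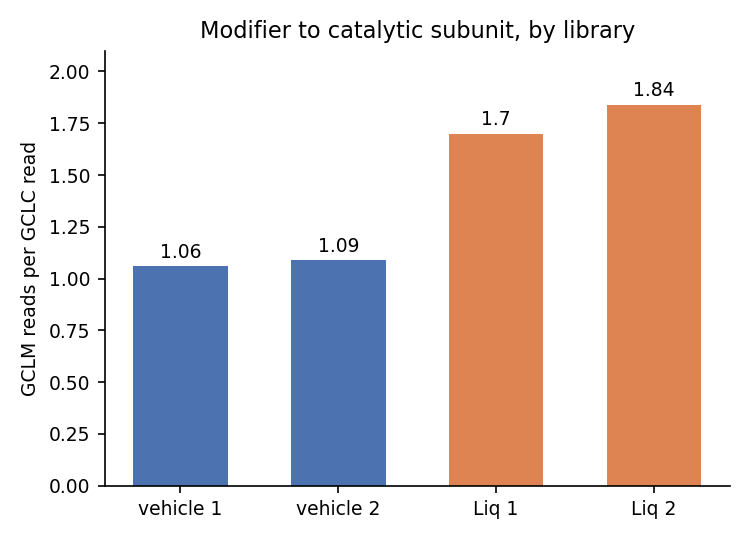
GCLM reads per GCLC read in each of the 4 libraries, as bars from 0 (vehicle blue, Liq orange). The vehicle libraries stand at 1.06 and 1.09 and the Liq libraries at 1.7 and 1.84.

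RefSeq promoter windows (GRCh38.p14, 250 bases before to 50 after the transcription start) were at hand for GCLC, GCLM, GPX1, GPX2, GPX4 and GPX8, which are 6 of the 9 members. GPX4 has 3 windows and the others 1 each. The windows of both ligase subunits are shown because these genes were compared above. They were searched on both strands for the ARE core TGACNNNGC and for TGATGNAA, the core of the composite site bound by C/EBP and ATF factors, and capitals mark a match. The first letters of the ARE core, TGAC, also occur in AP-1 and CREB sites, and matches of the motifs did not overlap each other in these windows.
GCLM, chr1:93909381-93909680, minus strand: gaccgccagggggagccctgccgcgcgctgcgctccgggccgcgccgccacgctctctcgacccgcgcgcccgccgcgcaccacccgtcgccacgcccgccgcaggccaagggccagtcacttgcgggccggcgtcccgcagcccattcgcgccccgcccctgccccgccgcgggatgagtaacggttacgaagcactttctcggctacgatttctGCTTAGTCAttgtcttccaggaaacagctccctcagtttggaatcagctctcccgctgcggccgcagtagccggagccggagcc
GCLC, chr6:53545052-53545351, minus strand: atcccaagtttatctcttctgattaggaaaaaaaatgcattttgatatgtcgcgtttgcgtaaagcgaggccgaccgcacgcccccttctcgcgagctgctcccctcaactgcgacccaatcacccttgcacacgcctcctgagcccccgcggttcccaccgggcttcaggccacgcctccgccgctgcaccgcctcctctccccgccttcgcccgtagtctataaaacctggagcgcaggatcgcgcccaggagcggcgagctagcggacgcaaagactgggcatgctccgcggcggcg

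The GCLM window held 1 ARE core, read on the opposite strand, with its first base at position -34 from the start, and the GCLC window held no match to either motif. The GPX2 window also held an ARE core (position -122), and the GPX8 window held a TGATGNAA match (position -189). Those of GPX1 and GPX4 held none. Of 35116 RefSeq windows of this length, 13.3% held the ARE core and 3.62% the other motif. A match of letters describes the window and shows no binding. Sequence outside these short windows was not searched, so a gene without a match here may have one elsewhere. Whether the motifs had a part in the fold changes was not tested.

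GSS (chromosome 20 from 33516235 to 33543830, GRCh37, minus strand) encodes the enzyme that adds glycine. It had 125 and 118 CPM in vehicle and 120 and 109 CPM in Liq, and the groups overlapped. The log2 fold change was -0.09 (SE 0.08, edgeR adjusted p = 0.4466), and the 95% interval of the fold change was 0.846 to 1.05. MYH7B shares 138 exonic bases with GSS on the opposite strand.

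Glutathione recycling. GSR encodes the NADPH-dependent reductase (chromosome 8 from 30535583 to 30585363, GRCh37, minus strand). It had 49.5 and 46.6 CPM in vehicle and 71.1 and 68.2 CPM in Liq. The libraries of each group lay close together and the groups were clearly separate. Mean levels were 48.1 ± 2.07 and 69.6 ± 2.01 CPM (SD, n = 2), and the log2 fold change was 0.53 (SE 0.08, 95% interval 0.37 to 0.70, edgeR adjusted p = 2.026e-05). GSR thus passed the adjusted p but stayed under 1.5-fold, at 1.45-fold with an interval of 1.29 to 1.62. None of the 11 alternative fits carried it past 1.5-fold, with log2 fold changes of 0.49 to 0.58.

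Glutathione peroxidases. GPX1 (chromosome 3 from 49394607 to 49396038, GRCh37, minus strand) encodes the cytosolic selenium-containing peroxidase that reduces hydrogen peroxide. It had 71.6 and 61.9 CPM in vehicle and 48.6 and 43.8 CPM in Liq, from 2942, 2317, 1730 and 2201 reads. Both Liq libraries were below both vehicle libraries, and vehicle replicate 1 was the highest. The log2 fold change was -0.53 (SE 0.09, 95% interval -0.71 to -0.35, edgeR adjusted p = 6.22e-05), so the adjusted p passed and the size stayed under 1.5-fold. The call turned on single libraries. The fold change passed 1.5-fold without vehicle replicate 2 (log2 -0.63, adjusted p = 2.799e-05) and without Liq replicate 1 (-0.61, adjusted p = 4.329e-10). An unnamed gene on the same strand, without a row, shares 572 exonic bases with GPX1, and the pseudogenes GPX1P1 and GPX1P2 have no rows, so its count is uncertain.

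GPX4 (chromosome 19 from 1103981 to 1106790, GRCh37, plus strand) encodes the peroxidase that reduces lipid hydroperoxides in membranes and restrains ferroptosis. It had 176 and 161 CPM in vehicle and 164 and 150 CPM in Liq. The groups overlapped, and the log2 fold change was -0.10 (SE 0.07, edgeR adjusted p = 0.3334), with a 95% interval of the fold change of 0.837 to 1.03.

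GPX8 (chromosome 5 from 54455995 to 54463125, GRCh37, plus strand), a membrane peroxidase of the endoplasmic reticulum that carries cysteine in place of selenocysteine, had 112 and 118 CPM in vehicle and 108 and 120 CPM in Liq. Both Liq values fell outside the range of the vehicle values, one on each side. The log2 fold change was 0.00 (value -0.003, SE 0.076, edgeR adjusted p = 0.98), with a 95% interval of the fold change of 0.895 to 1.11. Its sign changed with the scaling, since upper quartile normalization gave 0.02 and loess offsets 0.05.

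GPX2, the gastrointestinal peroxidase gene (chromosome 14 from 65405870 to 65409464, GRCh37, minus strand), had 0 reads in all 4 libraries, which allows up to 3 reads or 0.0598 to 0.0844 CPM per library from counting error alone. GPX2 did not pass the filter and was not tested.

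**Figure D3:**
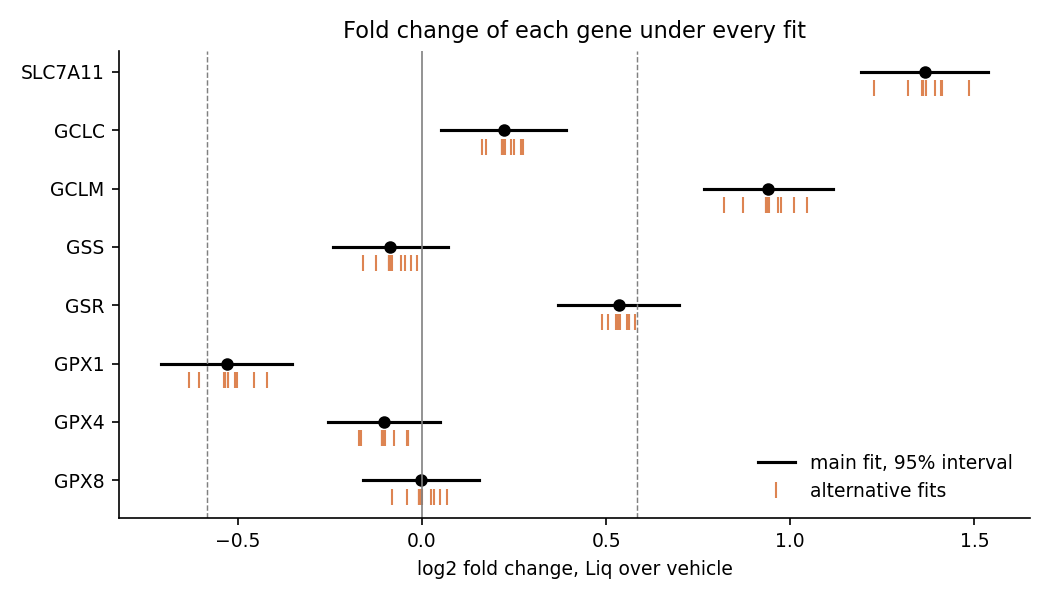
Log2 fold change (Liq over vehicle) of the 8 tested genes. Black points and lines are the estimate and its 95% interval, orange ticks the 11 alternative fits, and dashed lines 1.5-fold in either direction. All ticks of SLC7A11 (1.23 to 1.49) and GCLM (0.82 to 1.05) lie beyond 1.5-fold, those of GSR stop at 0.58, and those of GPX8 lie on both sides of 0.

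Levels were compared between genes as CPM per kilobase of exon, using the length of the annotated canonical transcript, which may not be the form that ES2 cells use. In vehicle, the order was GPX4 (198 ± 12.4), GPX1 (74.2 ± 7.60), GSS (63.6 ± 2.44), GPX8 (30.7 ± 1.09), GSR (15.8 ± 0.683), GCLC (13.1 ± 0.605), GCLM (10.9 ± 0.739) and SLC7A11 (6.51 ± 0.289 CPM per kb, SD, n = 2), with no overlap between neighbours. SLC7A11 has the longest transcript of the set, 9645 bases. In Liq the order was GPX4 (184 ± 11.9), GSS (60 ± 4.24), GPX1 (51.4 ± 3.77), GPX8 (30.6 ± 2.26), GSR (23.0 ± 0.662), GCLM (21.0 ± 2.32), SLC7A11 (16.7 ± 2.12) and GCLC (15.2 ± 0.832 CPM per kb, SD, n = 2). Here GSR overlapped GCLM, and SLC7A11 overlapped GCLC. GPX1 and GSS exchanged places, and GCLC moved from above to below GCLM.

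The peroxidase transcripts together summed to 316 and 289 CPM per kb in vehicle and to 276 and 257 in Liq. GPX4 made up 65.3% of the sum in both vehicle libraries and 69.8% and 68.5% in the Liq libraries, GPX1 25.2% and 23.8% against 19.6% and 19.0%. The share of GPX1 was lower and that of GPX4 higher in both Liq libraries than in either vehicle library.

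**Figure D4:**
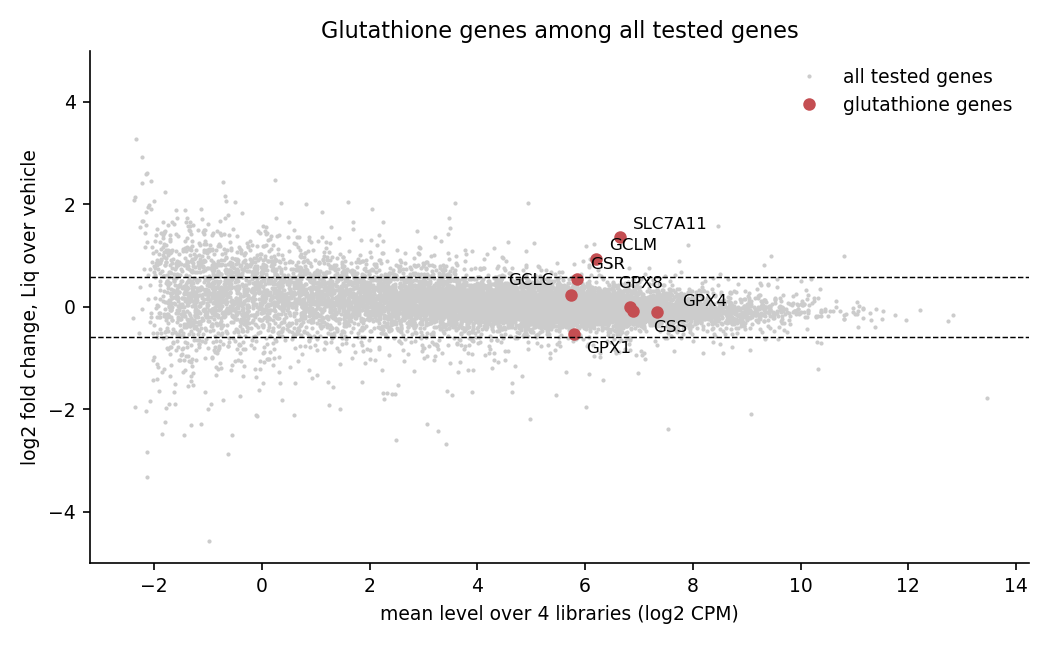
Log2 fold change (Liq over vehicle) against mean log2 CPM for the 13546 tested genes (grey), with the 8 tested glutathione genes in red and dashed lines at 1.5-fold. SLC7A11 and GCLM stand above the upper line, and the others lie between the lines.

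Of 43 other genes of cysteine supply and use, the γ-glutamyl cycle, further peroxidases, glutaredoxins, glyoxalases and selenoprotein synthesis, 34 were tested and 2 were called, both upward (6.45% of all tested genes were called). At an adjusted p under 0.05 of any size, 8 were higher and 5 lower (24% of all tested genes passed, 12.6% upward and 11.3% downward), with a median log2 fold change of -0.0272 over the 34.

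Among 9 tested genes of cysteine supply and use, 5 passed the adjusted p upward (12.6% of all tested genes did). These were SLC3A2, SLC1A4, CBS, CTH and CSAD. SLC1A4 passed narrowly (log2 fold change 0.225, edgeR adjusted p = 0.04604) and was not followed through the alternative fits. None of the 9 was called downward (2.16% of all tested genes were), also by DESeq2 and with the unadjusted p. CBS, the first enzyme of transsulfuration, had 104 and 96.3 CPM in vehicle and 133 and 119 CPM in Liq (log2 fold change 0.34, edgeR adjusted p = 0.00236). CTH, which releases cysteine in the next step, had a log2 fold change of 0.32 (edgeR adjusted p = 0.02), both under 1.5-fold. Without vehicle replicate 2 neither passed (adjusted p = 0.1151 for CBS and 0.1016 for CTH), and CTH did not pass without vehicle replicate 1 (0.2308) or by DESeq2 (0.05537). CSAD, which makes hypotaurine from cysteine sulfinate, was called at 3.87 and 4.301 against 7.48 and 5.52 CPM (log2 fold change 0.66, edgeR adjusted p = 0.002537), but it fell below 1.5-fold without vehicle replicate 1 (0.58), without Liq replicate 1 (0.44) and with loess offsets (0.53). SLC3A2, the heavy subunit that holds SLC7A11 in the membrane and a gene singled out after its values were seen, had 182 and 172 CPM in vehicle and 203 and 200.1 CPM in Liq. Its log2 fold change of 0.19 (edgeR adjusted p = 0.04987) lost the threshold in 6 of 11 alternative fits, including those without vehicle replicate 1 (adjusted p = 0.2026), vehicle replicate 2 (0.4596) and Liq replicate 1 (0.07611). The 95% interval of its fold change, 1.03 to 1.26, lay below that of SLC7A11, 2.28 to 2.90.

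In the γ-glutamyl cycle, 9 of 14 genes were tested, 2 passed the adjusted p upward and 1 downward, where 24% of all tested genes passed in either direction. GGT5, a γ-glutamyl transferase of the cell surface, had 44.9 and 40.8 CPM in vehicle and 105 and 91.3 CPM in Liq, a log2 fold change of 1.19 (SE 0.09, edgeR adjusted p = 5.818e-11), and was called in all 11 alternative fits. GGT7 had a log2 fold change of 0.36 (edgeR adjusted p = 0.005369) and missed the threshold without vehicle replicate 1 (0.1331) and without Liq replicate 1 (0.05388). ANPEP, an aminopeptidase that splits cysteinylglycine outside the cell, had 493 and 440 CPM in vehicle and 343 and 307 CPM in Liq (log2 fold change -0.52, edgeR adjusted p = 5.143e-06). ANPEP was under 1.5-fold except without vehicle replicate 2 (-0.603) and without Liq replicate 1 (-0.605).

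Of the 7 glutaredoxin and glyoxalase genes, 3 fell past the adjusted p (11.3% of all tested genes did). None was called, where 6.45% of all tested genes were (0 also with the unadjusted p and by DESeq2). All 7 had a log2 fold change below 0, as did 49% of all tested genes, but 1 was above 0 with upper quartile normalization, with loess offsets, without vehicle replicate 1 and without Liq replicate 1. GLRX, the cytosolic glutaredoxin that uses glutathione to reduce mixed disulfides, had 48.9 and 44.6 CPM in vehicle and 33.7 and 34.2 CPM in Liq (log2 fold change -0.46, edgeR adjusted p = 0.000318). GLRX3 had a log2 fold change of -0.29 (edgeR adjusted p = 0.007401) and missed the threshold without vehicle replicate 1 (0.1989) or 2 (0.06645). Of the 8 genes of selenoprotein synthesis, EEFSEC, the elongation factor for selenocysteine, had a log2 fold change of 0.37 (edgeR adjusted p = 0.008024) and SEPHS1 one of -0.23 (edgeR adjusted p = 0.03493), and the other 6 did not pass (24% of all tested genes passed). EEFSEC missed the threshold without vehicle replicate 2 (adjusted p = 0.1381), and SEPHS1 without vehicle replicate 1 (0.44), vehicle replicate 2 (0.1217) or Liq replicate 1 (0.09764), with upper quartile normalization (0.06256) and with loess offsets (0.06965). Of the other peroxidases only GPX7 was tested, at 6 to 23 reads per library (edgeR adjusted p = 0.7513). GPX3 had at most 1 read, and GPX5 and GPX6 had none.

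Among 5 regulators of these genes (NFE2L2, KEAP1, BACH1, ATF4 and MAFG) none was called, where 6.45% of all tested genes were (0 also with the unadjusted p and by DESeq2). Of the 5, 1 passed the adjusted p, downward, as did 11.3% of all tested genes. NFE2L2, which encodes NRF2, had 143 and 151 CPM in vehicle and 119 and 125 CPM in Liq, a log2 fold change of -0.27 (SE 0.07, edgeR adjusted p = 0.008329). It missed the threshold without vehicle replicate 1 (adjusted p = 0.07384) and without vehicle replicate 2 (0.2089). MAFG, a small MAF partner of NRF2, had a log2 fold change of -0.15 (edgeR adjusted p = 0.1338). NRF2 is controlled largely through the stability of its protein, which was not measured here.

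**Figure D5:**
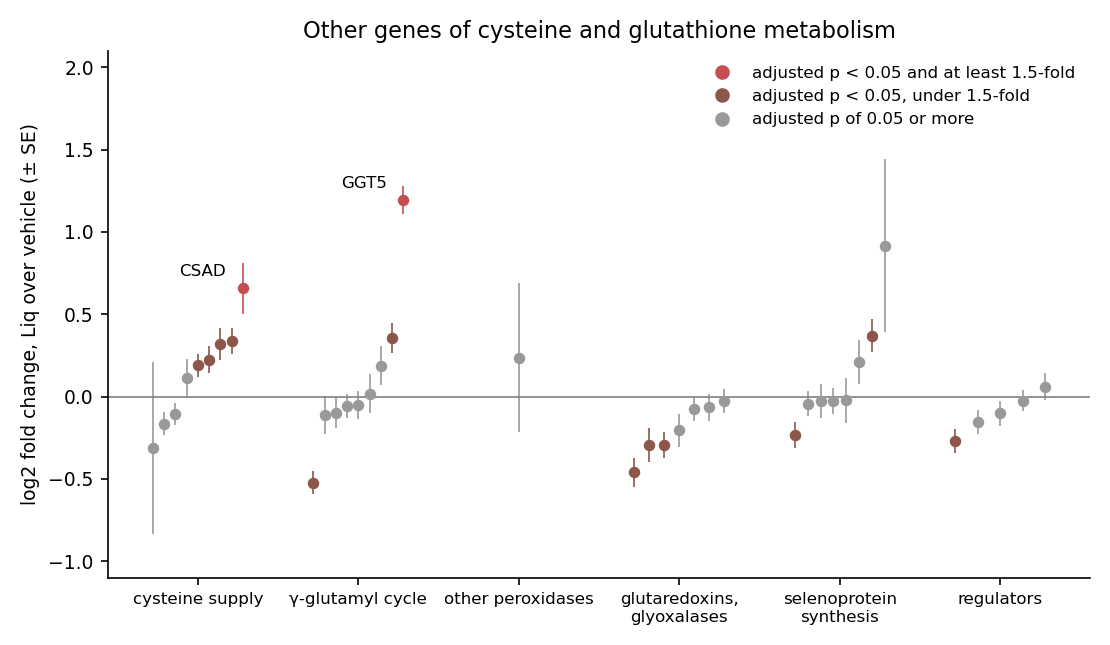
Log2 fold change (Liq over vehicle, bars ± SE) of the tested genes of 5 further pathway lists and of the 5 regulators, sorted within each list. Red points passed the adjusted p and 1.5-fold (CSAD and GGT5), brown points the adjusted p alone, and grey points neither. The list labelled cysteine supply also holds genes of cysteine use, such as CSAD. The glutaredoxin and glyoxalase points all lie below 0, where 1 lies above 0 with upper quartile normalization, with loess offsets, without vehicle replicate 1 and without Liq replicate 1.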

How the data were processed

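Total RNA libraries (TruSeq, 100-base single-end per the labels) from 2 vehicle and 2 Liq samples of ES2 cells were analysed. The sample labels name the same Illumina HiSeq model for all 4 libraries, and the series' design text names another. The authors deposited raw counts per gene, not normalized. Their processing notes name hg19 (GRCh37), bcl2fastq 2.17.1.14, TopHat2 2.0.8b and HTSeq. The annotation and strand setting are not given in the sources used here. Groups and replicate numbers came from the sample titles. The 5 tally rows were left out of library sizes and tests, which left 54.06% to 55.62% of the total tally.

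Counts were fitted in R 4.3.3 with edgeR 4.0.16 (filterByExpr, minimum count 10 and total 15, TMM, glmQLFit and glmQLFTest, no replicate block), and p-values were adjusted over 13546 genes. The SE was the absolute log2 fold change divided by the square root of F. Coordinates and exon lengths came from GENCODE (v44 lifted to GRCh37), and promoter windows from RefSeq. Alternatives were other scalings (DESeq2 size factors, upper quartile, loess offsets with a span of 0.3), filters and thresholds, DESeq2 1.42.0, a replicate block and leaving out each sample. The fits were tested on simulated data. The members and lists were chosen with earlier results of these data known. Genes of the lists were named if called, or as up to 2 per list with the smallest adjusted p among the rest. Intervals and limits for a count of 0 cover counting error or the fitted spread only. Some marker genes are not reported here.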

Additional observations from a re-analysis of the deposited data

How the results depend on the processing

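The calls of SLC7A11, GCLM and GGT5 held under all 11 alternative fits. With the replicate block, the same 2 members were called, 898 of all tested genes passed, and the adjusted p of GCLC was 0.006715. Labels give both groups the numbers 1 and 2, but no source used here says that a number marks a shared culture or batch, and deviations of same-numbered samples correlated at 0.0483 across genes. DESeq2 called 566 genes in all, against 874, and the same 2 members. Without a fold threshold, 3245 genes in all, 4 members and 13 other pathway genes passed, and at 2-fold 328, 1 and 1 did. Loess offsets left 1 other pathway gene, and split the calls over all genes into 354 higher and 394 lower, against 581 and 293. Leaving out 1 sample at a time gave 659 to 979 genes, 2 to 3 members and 1 to 3 other pathway genes (1 without vehicle replicate 1), and differences of 0.658 to 0.772 in the log2 ratio of GCLM to GCLC. The log2 fold change of GPX8 changed sign with upper quartile normalization (0.024), loess offsets (0.05), at least 10 counts in every sample (0), and without vehicle replicate 2 or Liq replicate 1 (range with 1 sample left out -0.082 to 0.068). That of GPX7 changed sign with loess offsets (-0.019) and without vehicle replicate 2 (range with 1 sample left out -0.354 to 1.366). The cause was not tested. With 2 samples per group, the tests depend on variation pooled over genes (biological coefficient of variation 0.0575).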

Other observations

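GPX1, GPX2 and GPX4 encode selenoproteins. A list of 22 further human selenoprotein genes was written after the values of the members had been seen, under the symbols of the files, and the genes named here were chosen after their own values were seen. Of the 22, 16 were tested, 9 were higher and 7 lower with Liq, and the median log2 fold change was 0.0366 (0.00619 over all tested genes). Of the 16, 1 was called upward and 1 downward, where 4.29% and 2.16% of all tested genes were. TXNRD1, the cytosolic thioredoxin reductase gene, was the 1 called upward, from 1269 ± 30.8 to 2534 ± 116 CPM (SD, n = 2). SELT, a selenoprotein of the endoplasmic reticulum, was the 1 called downward, from 85.7 ± 1.09 to 51.5 ± 4.15 CPM (SD, n = 2), with a log2 fold change of -0.73 (SE 0.08, edgeR adjusted p = 1.649e-07). TXNRD2, which encodes the mitochondrial thioredoxin reductase, had a log2 fold change of -0.535 (SE 0.087, edgeR adjusted p = 5.111e-05), under 1.5-fold except without Liq replicate 1 (-0.599), and -0.531 was the value for GPX1. TXNRD3, the other gene of this family, had a log2 fold change of 0.207 (edgeR adjusted p = 0.1604). C11orf31 (-0.36) and SEP15 (-0.20) also fell past the adjusted p. In all, 4 of the 16 fell past the adjusted p, against 11.3% of all tested genes. Upward, 1 of the 16 passed it, against 12.6% of all tested genes.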
